A study of Homo sapiens with 9 samples.

Results

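SKOV-3, a cell line from a human ovarian carcinoma, was cultured for 3 days in dishes coated with hydrogel of 0.5, 4 or 25 kPa, and poly(A) RNA of 3 libraries per gel was sequenced. Cells on the 4 kPa gel were compared here with cells on the softer and the stiffer gel at the same time, a comparison that finds genes whose level does not simply climb or decline with stiffness. The 3 libraries of 4 kPa (replicates 1, 2 and 3), out of 9 libraries in all, were set against the midpoint of the 0.5 kPa libraries (replicates 1, 2 and 3) and the 25 kPa libraries (replicates 2, 3 and 4). The midpoint is the mean of the 0.5 and 25 kPa levels on the log2 scale, with equal weights. No drug, transgene or deletion separates the groups, all of which come from 1 cell line, and stiffness is the only label that differs.

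Cells sense the stiffness of what they grow on through integrins, focal adhesions and tension in the actin cytoskeleton. Several transcription systems respond to this. YAP and TAZ, the co-activators of the Hippo pathway, bind TEAD factors and switch on genes such as CTGF and CYR61. Serum response factor (SRF) and its partners switch on cytoskeletal genes and, with signals from the ERK kinases, the immediate early genes. Immediate early genes are induced within minutes by growth factors, stress or stretch without new protein synthesis, encode mostly transcription factors such as FOS and EGR1, and have short-lived RNAs. Many of their products, such as the DUSP phosphatases, switch the signal off again.

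All 9 libraries were of similar depth, with 19609740 to 21033433 counts. Replicates differed beyond sampling noise in every pair, with a chi-square per degree of freedom between 3.08 and 24.5. All 9 markers of SKOV-3 (among them ERBB2, PAX8 and KRT7) had a mean of at least 1 CPM (counts scaled to the library total, per 1000000), and their summed level was 5274 to 5565 CPM on 0.5 kPa, 4857 to 5631 on 4 kPa and 4763 to 4913 on 25 kPa. MCF-7 is a line that the study names in a figure caption but not in its culture methods. Of 8 markers of MCF-7, 7 were matched and 3 of them (ESR1, GREB1 and CA12) reached 1 CPM. The sums were 308.3 to 336.7 CPM on 0.5 kPa, 245.3 to 274.3 on 4 kPa and 215.8 to 234.1 on 25 kPa, whereas TFF1, GATA3 and AGR2 stayed below 1 CPM. Fibroblast markers summed to 57.39 to 69.12 CPM on 0.5 kPa, 60.42 to 66.25 on 4 kPa and 56.19 to 60.06 on 25 kPa, mesothelial markers to 31.47 to 39.75, 40.08 to 41.89 and 46.69 to 47.24 CPM, and 0 of 6 immune markers reached 1 CPM. The part of other cells in the results was not tested. The 0.5 kPa and 4 kPa libraries numbered 3 stood apart from the other libraries of their gels in some lists, as described beside those genes. These were the targets of NF-kB and ATF4 and the genes of sterol and fatty acid synthesis.

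Of 36343 genes in the table, 16335 had enough counts to be tested, and 104 of these differed from the midpoint on 4 kPa at an adjusted p under 0.05 in edgeR's quasi-likelihood test. The level on 4 kPa was above the midpoint for 64 genes (0.392% of the genes tested) and below it for 40 (0.245%). Under an unadjusted p of 0.05 there were 825 genes above and 997 below. The median log2 difference was 0.63 for the genes above, -0.49 for the genes below and -0.0046 for all genes tested, and 16 of the genes above but 5 of the genes below reached 2-fold. DESeq2, a second count model with its own size factors, called 106 genes in each direction, while removing the trend of each library on GC content, given after the single genes, left 69 above and 22 below, and limma on the deposited FPKM values called 49 above and 19 below.

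Being off the midpoint does not by itself make a gene highest or lowest on 4 kPa. A gene is called a peak here when it was above the midpoint and also above 0.5 kPa and above 25 kPa, each at an adjusted p under 0.05, and a dip when it was below in the same 3 tests. There were 25 peaks (0.153% of the genes tested) and 14 dips (0.0857%). The 3 tests share libraries and are not independent. The fitted level on 4 kPa lay above both other gels for 58 of the 64 genes above and below both for all 40 genes below. In 53 of the genes above, each of the 3 libraries of 4 kPa exceeded each of the 6 others, an arrangement found in 2.02% of all genes tested. In 37 of the genes below each was under the 6 others, found in 2.45%. All 25 peaks and all 14 dips had their libraries apart in this way. It was required of the genes named as the largest rises and falls, so it adds no support for them. Nothing in the labels ties replicates to separate cultures, so the p-values measure only the spread between these libraries, which may be technical. In bulk RNA a change in every cell and a change in the share of responding cells cannot be told apart.

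**Figure D1:**
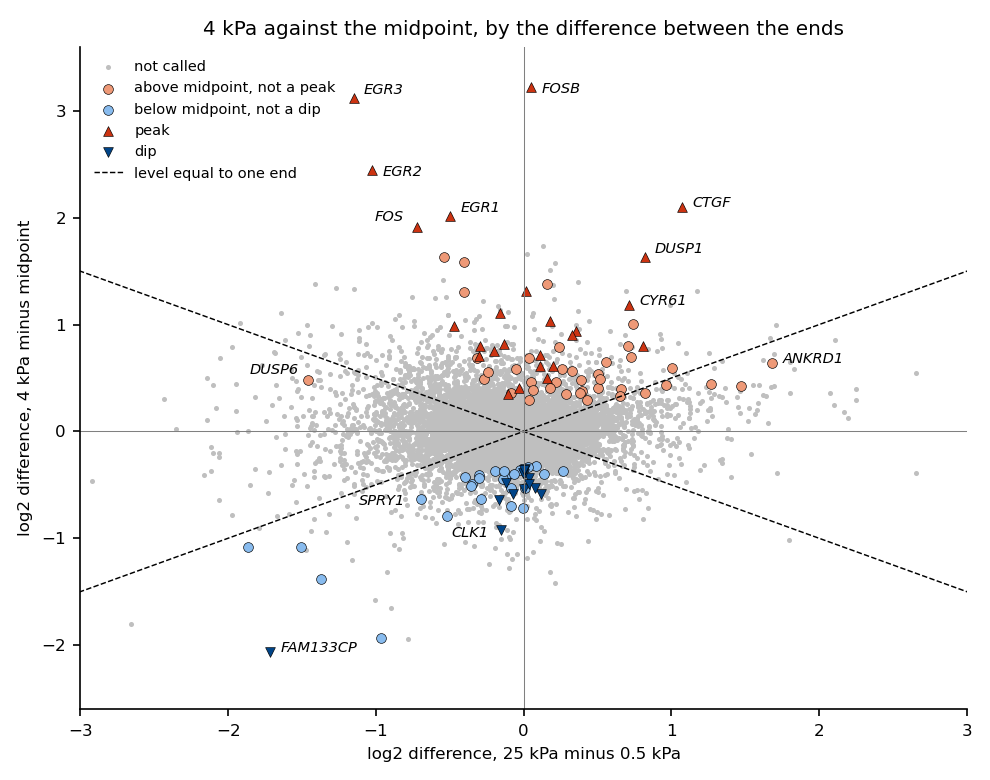
Log2 difference of 4 kPa from the midpoint (vertical axis) against the log2 difference of 25 kPa from 0.5 kPa (horizontal axis) for the genes tested, with 5 genes outside the axes. On the dashed lines the 4 kPa level equals that of 1 of the other gels. The 25 peaks (red triangles) lie above the upper lines and spread to both sides of the vertical axis, from EGR3 on the left to CTGF on the right, and the 14 dips (dark triangles) lie close to it except FAM133CP.

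The peaks split by what happened between the end gels. Of the 25 peaks, 6 also differed between 25 and 0.5 kPa, 4 of them higher on 25 kPa (CTGF, CYR61, DUSP1 and EDN1) and 2 lower (EGR1 and FOS). For CSRNP1 the ends were 0.02 apart on the log2 scale (95% interval -0.24 to 0.28) and for NFKBIZ -0.14 (-0.31 to 0.04). Of the 14 dips, 1 differed between the ends, the pseudogene FAM133CP. For CLK1 the difference of the ends was -0.15 (-0.31 to 0.01), for CENPE 0.12 (-0.07 to 0.31) and for ESF1 0.00 (-0.24 to 0.24).

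The promoters of 3 of the leading peaks are shown as examples, picked by hand because each holds a known motif, for SRF, for TEAD factors and for CREB factors, which respond to cAMP and other signals. These motifs are not typical of the peaks, as their shares below show, and of 13 tested cAMP and CREB targets 0 were called by edgeR or DESeq2, with 2 above at an unadjusted p under 0.05. The 250 bases before the start of each gene, from RefSeq on GRCh38.p14, are given 5′ to 3′ on the strand of the gene. Capitals mark the CArG boxes to which SRF binds in EGR1 (chr5:138465229-138465478, plus strand), the GGAATG copies (CATTCC on the other strand, the core that TEAD factors bind) in CTGF, now named CCN2 (chr6:131951373-131951622, minus strand), and the TGACGTCA element that CREB factors bind in DUSP1 (chr5:172771196-172771445, minus strand).
EGR1: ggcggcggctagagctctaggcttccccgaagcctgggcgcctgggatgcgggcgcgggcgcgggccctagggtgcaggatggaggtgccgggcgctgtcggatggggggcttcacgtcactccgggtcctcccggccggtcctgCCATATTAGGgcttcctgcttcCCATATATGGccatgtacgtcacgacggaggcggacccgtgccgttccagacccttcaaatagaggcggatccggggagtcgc
CTGF: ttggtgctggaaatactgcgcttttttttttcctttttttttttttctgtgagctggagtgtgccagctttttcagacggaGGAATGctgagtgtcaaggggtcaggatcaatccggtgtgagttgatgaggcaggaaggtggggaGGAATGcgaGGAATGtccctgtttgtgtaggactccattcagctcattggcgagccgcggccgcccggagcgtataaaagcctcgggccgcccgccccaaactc
DUSP1: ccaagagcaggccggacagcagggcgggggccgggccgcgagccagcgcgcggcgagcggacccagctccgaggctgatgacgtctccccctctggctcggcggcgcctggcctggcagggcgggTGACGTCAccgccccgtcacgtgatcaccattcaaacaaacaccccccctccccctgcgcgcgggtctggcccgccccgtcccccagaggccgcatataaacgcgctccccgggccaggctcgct

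The CArG boxes of EGR1 begin 105 and 83 bases before the start, the TEAD cores of CTGF 169, 104 and 95 bases before it, and the element of DUSP1 125 bases before it. A promoter window was matched for 20 of the 25 peaks, 13 of the 14 dips and 11496 of the genes tested, and each motif was searched on both strands. At least 1 CArG box was in 1 of the 20 peak windows (5.0%), in none of the dip windows and in 1.02% of all windows, and EGR1 was among 4 genes of all 11496 with at least 2 in the window. CATTCC was in 4 peak windows (20%, CTGF, SOCS3, EGR2 and STAT2), 2 dip windows (15.4%) and 9.35% of all. TGACGTCA was in 1 peak window (5.0%), 1 dip window (7.69%, CENPE) and 2.78% of all. The TATA box letters TATAAA were in 6 peak windows (30.0%, CTGF, FOS, FOSB, DUSP1, NFKBIZ and SGK1), 1 dip window (7.69%) and 5.49% of all. The AP-1 letters TGANTCA were in no peak or dip window and in 3.98% of all. TGACG, which is part of TGACGTCA, was in 7 peak windows (35.0%), 6 dip windows (46.2%) and 29.1% of all. These counts describe letters in a short window and not binding.

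Immediate early genes made up the largest group of peaks. Of 26 genes on the list 25 were tested, and 13 of these rose on 4 kPa against the midpoint (52% against 0.392% of all genes), 0 fell and 12 did not pass the test. This list, the other lists and the comparison were chosen with earlier results of these data known. The shares of called genes therefore describe the lists and are not an independent test of them. At an unadjusted p under 0.05 there were 22 above and 1 below, and DESeq2 called 17 above and 0 below. Of the 13, 11 were peaks. The difference was positive for 24 of the 25, with a median log2 difference of 0.69 against -0.0046 for all genes tested. In 15 of the 25 every 4 kPa library was above the 6 others, an arrangement found in 2.02% of all genes tested. The median of the list over each library, relative to the midpoint, was 0.49, 0.53 and 0.83 in the 4 kPa libraries 1, 2 and 3, between 0.06 and 0.11 on 0.5 kPa and between -0.16 and -0.03 on 25 kPa. Without the 4 kPa library numbered 3 the list still had 13 genes above, and its median was 0.50. Over all alternatives and left-out libraries 7 to 19 of the genes were called above and the median stayed between 0.50 and 0.74, with 1 gene below (IER5L) in 2 of them.

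EGR1 (ENSG00000120738, chromosome 5, 138465490 to 138469315 on hg38), a zinc finger factor induced by growth factors and by mechanical load, was the most abundant of these peaks. Its level was 829, 884 and 716 CPM in the 3 libraries on 4 kPa, 234, 263 and 216 CPM on 0.5 kPa and 163, 155 and 187 CPM on 25 kPa. Every 4 kPa library stood far over the 6 others, and the 25 kPa libraries were all below the 0.5 kPa libraries. The log2 difference from the midpoint was 2.02 ± 0.08 (SE, adjusted p = 1.7e-08 in edgeR). FOS (chromosome 14), a subunit of the AP-1 factor, had the same order, at 59.2, 62.8 and 59.8 CPM on 4 kPa, 20.4, 23.7 and 17.9 on 0.5 kPa and 11.1, 10.8 and 15.6 on 25 kPa. For FOS the log2 difference from the midpoint was 1.91 ± 0.11 (adjusted p = 2.6e-07 in edgeR).

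FOSB, a partner of JUN in AP-1, showed the largest fitted rise of all called genes, at low counts. It was at 8.05, 7.12 and 6.55 CPM on 4 kPa, 1.07, 0.659 and 0.527 CPM on 0.5 kPa and 0.804, 0.711 and 0.824 CPM on 25 kPa, a log2 difference of 3.23 ± 0.17 (adjusted p = 2.4e-07 in edgeR). Between the end gels FOSB differed by 0.05 (95% interval -0.58 to 0.68). FOSB and the EGR1 relatives EGR3 and EGR2 had means under 5 CPM and were named after their values were seen. EGR3 and EGR2 rose by log2 3.12 ± 0.23 and 2.45 ± 0.29 (adjusted p = 7.1e-06 and 6.3e-04 in edgeR). EGR3 was at 7.55, 7.76 and 4.35 CPM on 4 kPa, and between 0.452 and 1.47 CPM in the 6 other libraries. The third 4 kPa library was the lowest of its gel for EGR1, EGR2, EGR3 and FOSB, the reverse of the list median.

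CSRNP1, a nuclear protein first found as an AXIN1-induced gene, was at 21.9, 23.0 and 19.8 CPM on 4 kPa, against 7.47 to 9.27 CPM on 0.5 kPa and 8.18 to 9.55 on 25 kPa. The log2 difference was 1.32 ± 0.09 (adjusted p = 4.7e-06 in edgeR). TRIB1, a pseudokinase scaffold, IER3, an early response gene linked to cell survival, and IER2, a nuclear early response protein, rose by 0.75 ± 0.06, 0.72 ± 0.11 and 0.71 ± 0.07 on the log2 scale (adjusted p = 1.5e-05, 0.0081 and 1.8e-04 in edgeR). IER3 varied most among them on 4 kPa, at 276, 308 and 390 CPM. JUN, the main partner of FOS, and NR4A1, a nuclear receptor, both named after their values were seen, rose by 0.50 ± 0.05 and 0.98 ± 0.15 (adjusted p = 2.7e-04 and 0.0097 in edgeR). JUN had 318, 330 and 324 CPM on 4 kPa against 211 to 221 on 0.5 kPa and 236 to 246 on 25 kPa. Called members that were not peaks, named after their values were seen, were MYC, a growth regulator, and ZFP36, which speeds the decay of RNAs with AU-rich elements (0.58 and 0.69, adjusted p = 0.048 and 0.022 in edgeR).

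Members that did not pass the test were led by ATF3, a stress-induced factor of the ATF family, named after its values were seen. ATF3 was at 18.6, 18.6 and 32.4 CPM on 4 kPa, 5.11, 4.71 and 11.7 CPM on 0.5 kPa and 10.6, 6.30 and 8.10 CPM on 25 kPa. All 3 libraries on 4 kPa were above the rest, yet the replicates numbered 3 were high on both gels, and the log2 difference of 1.58 ± 0.32 had an adjusted p of 0.10 in edgeR. The negative difference of the list was that of IER5L, a relative of IER5 also named after its values were seen (log2 -0.19, adjusted p = 0.30 in edgeR). FOSL1, FOSL2, JUNB, JUND and SRF itself had differences of 0.18 to 0.42, none of which passed.

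**Figure D2:**
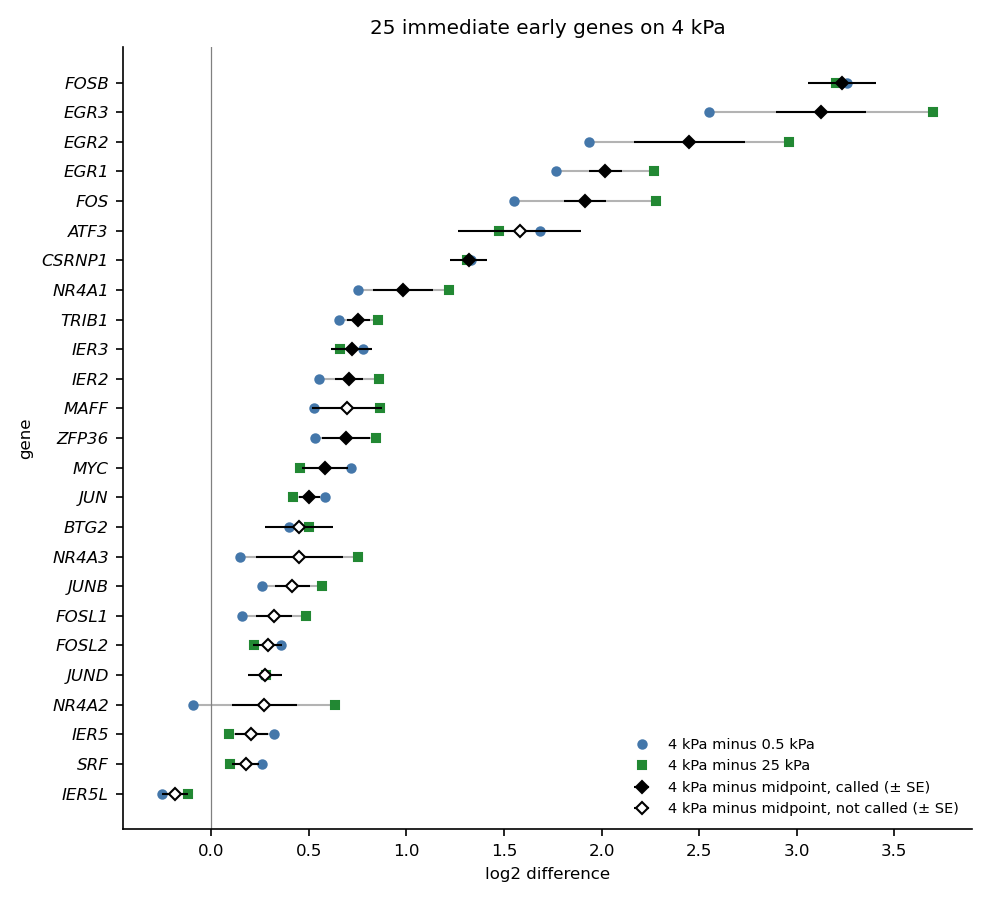
Log2 difference (horizontal axis) of 4 kPa from 0.5 kPa (blue circles), from 25 kPa (green squares) and from the midpoint (diamonds, bars are 1 SE, filled where called) for the 25 tested immediate early genes (vertical axis). The midpoint difference is positive for 24 of 25 genes, and among the peaks EGR1, EGR2, EGR3, FOS, NR4A1, IER2 and TRIB1 have the square to the right of the circle.

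Phosphatases that shut down MAP kinases led the genes of ERK feedback, most of which did not pass the test. Of 19 tested genes 3 rose (DUSP1, DUSP5 and DUSP6, 15.8% against 0.392% of all genes), 1 fell (SPRY1, 5.26% against 0.245%) and 15 did not pass. The median log2 difference was 0.18. At an unadjusted p under 0.05 there were 8 above and 1 below, and DESeq2 called 5 above and 1 below. DUSP1, a nuclear phosphatase of several MAP kinases, was at 209, 236 and 287 CPM on 4 kPa, 62.2, 53.5 and 62.1 on 0.5 kPa and 111, 95.3 and 108 on 25 kPa, a log2 difference of 1.63 ± 0.09 (adjusted p = 2.6e-07 in edgeR). DUSP5, which acts on ERK in the nucleus, was at 31.3, 29.6 and 39.6 CPM on 4 kPa against 13.9 to 19.7 on 0.5 kPa and 13.8 to 15.3 on 25 kPa, a difference of 1.11 ± 0.11 (adjusted p = 1.5e-04 in edgeR). Both were peaks.

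DUSP6, the cytoplasmic ERK phosphatase, and SPRY1, an inhibitor of receptor tyrosine kinase signals, were off the midpoint without being a peak or a dip. DUSP6, like ANKRD1, TAGLN, KRT7 and KRT80 further on, lay between the end gels and was named after its values were seen. DUSP6 was at 14.3, 12.5 and 13.2 CPM on 4 kPa, close under the 15.3 to 16.2 CPM of 0.5 kPa and far over the 4.78 to 6.30 CPM of 25 kPa. DUSP6 differed from the midpoint by 0.48 (adjusted p = 0.042 in edgeR), which turned to -0.04 when the reference was interpolated between the end gels by the stiffness itself. With 1 library left out DUSP6 was called in 1 of 9 fits, that without 4 kPa replicate 3 (adjusted p from 0.052 to 0.20 in the others), and over the 15 alternatives in 8. SPRY1 was at 9.15, 10.1 and 7.92 CPM on 4 kPa, under 0.5 kPa (15.3 to 19.1 CPM) and just under 25 kPa (10.3 to 11.6 CPM). SPRY1 fell by 0.63 against the midpoint (adjusted p = 0.020 in edgeR), but 4 against 25 kPa did not pass (adjusted p = 0.31 in edgeR), and it was called in 4 of the 9 left-out fits. In the EGF family ERRFI1, an inhibitor of EGFR, and the ligand HBEGF rose by 0.49 and 0.48 (adjusted p = 0.022 and 0.032 in edgeR). They were 2 of 12 tested genes (16.7% against 0.392% of all genes), 10 did not pass, and neither of the called genes was a peak. With 1 library left out HBEGF was called in 1 of 9 fits, that without 0.5 kPa replicate 3, and ERRFI1 in 4. ERRFI1 lost its call without 0.5 kPa replicate 2, 4 kPa replicate 1 or 2 or 25 kPa replicate 3 or 4, where the EGF family had 0 called genes.

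CTGF and CYR61, secreted matricellular proteins that are standard readouts of YAP and TAZ, were peaks whose replicates lay close together on every gel. CTGF (ENSG00000118523, chromosome 6, 131948176 to 131951373) was at 276, 266 and 267 CPM on 4 kPa, 41.9, 39.5 and 48.7 on 0.5 kPa and 87.4, 90.6 and 96.0 on 25 kPa. All 3 gels were separate, and the log2 difference from the midpoint was 2.098 ± 0.07 (adjusted p = 9.4e-10 in edgeR), the smallest adjusted p of the comparison. CYR61, now named CCN1, was at 453, 455 and 475 CPM on 4 kPa, 155 to 162 on 0.5 kPa and 252 to 264 on 25 kPa, a difference of 1.19 ± 0.05 (adjusted p = 3.3e-08 in edgeR). Against 25 kPa alone CTGF was higher by 1.56 and CYR61 by 0.83 on the log2 scale.

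Of 24 tested targets of YAP and TAZ, these 2 and ANKRD1 and AMOTL2 were above the midpoint (16.7% against 0.392% of all genes). Of the list 0 fell and 20 did not pass, with a median of 0.098. At an unadjusted p under 0.05 there were 8 above and 2 below, and DESeq2 called 5 above and 0 below. ANKRD1, a muscle ankyrin repeat protein, had 30.9, 30.1 and 42.9 CPM on 4 kPa against 39.5 to 40.0 on 25 kPa and 11.5 to 13.9 on 0.5 kPa. It was above the midpoint by 0.64 (adjusted p = 0.015 in edgeR) but 4 against 25 kPa gave -0.20 (adjusted p = 0.48 in edgeR). AMOTL2, an angiomotin that binds YAP, was above the midpoint by 0.41 (adjusted p = 0.021 in edgeR) and above 25 kPa by 0.16 (adjusted p = 0.41 in edgeR). Of 23 components of the Hippo pathway 0 were called by edgeR and 0 by DESeq2, 2 had an unadjusted p under 0.05, and TEAD3 came nearest (0.16, adjusted p = 0.34 in edgeR). TAGLN, an actin-binding protein, was the only called gene of 25 in the actin and SRF list (4% against 0.392% of all genes). TAGLN was above the midpoint by 0.44 (adjusted p = 0.048 in edgeR). It had 106, 108 and 133 CPM on 4 kPa, overlapping the 121 to 150 CPM of 25 kPa and above the 51.5 to 60.5 CPM of 0.5 kPa. With 1 library left out TAGLN was called in 1 of 9 fits, that without 25 kPa replicate 2 (adjusted p from 0.052 to 0.17 in the others), and AMOTL2 was called in 4 and ANKRD1 in 7.

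**Figure D3:**
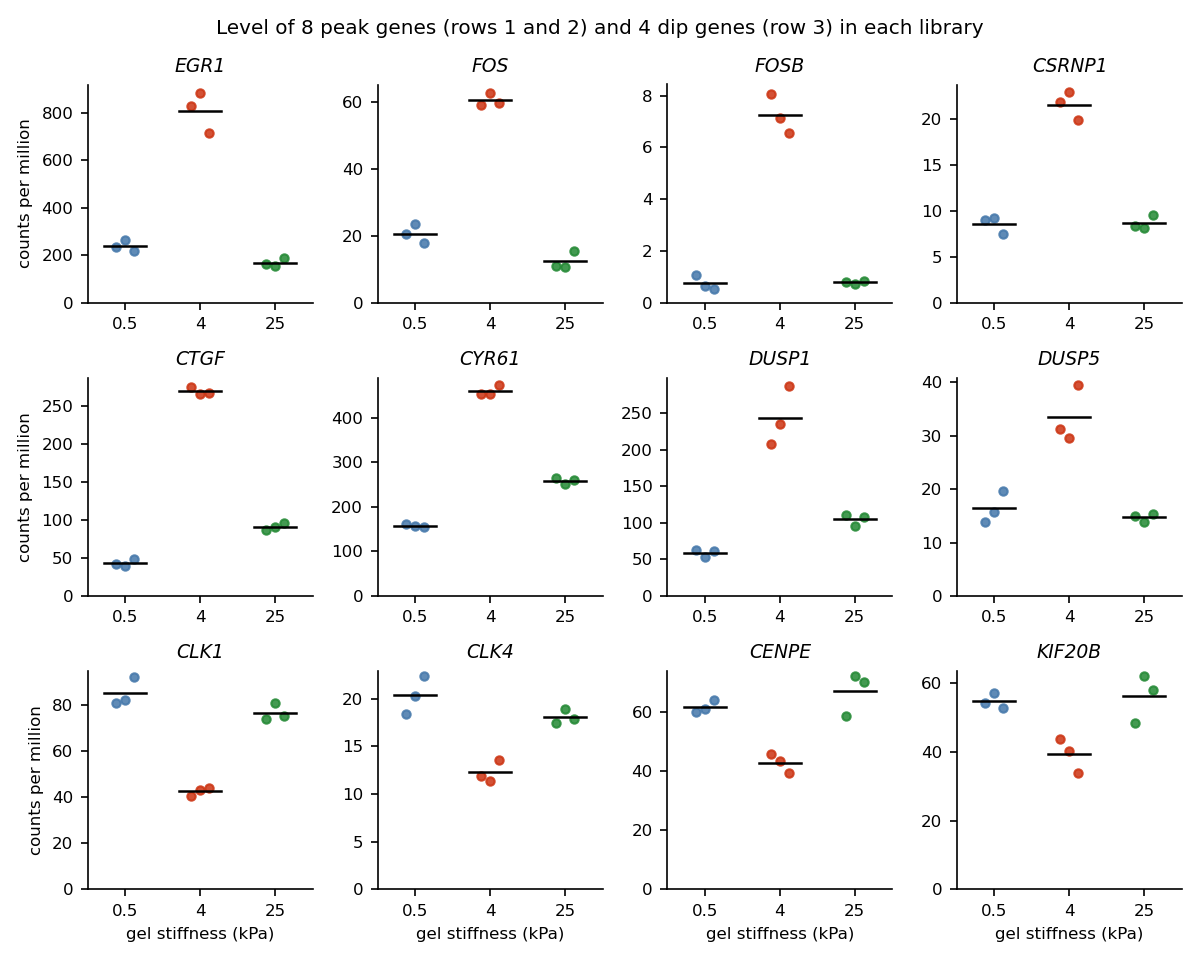
Level in CPM (vertical axes, from 0) on each gel (horizontal axes, stiffness in kPa) of 8 peaks and 4 dips, with 1 point per library and a line at the mean of 3. In each panel, as for all 25 peaks and 14 dips, the 3 points of 4 kPa lie above (first 8 genes) or below (last 4) all 6 others. Examples are CTGF at 276, 266 and 267 CPM and CLK1 at 40.4, 43.2 and 43.7 CPM.

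Signalling and transcription genes outside these lists made up the rest of the peaks. SOCS3, an inhibitor of cytokine receptor signals, was at 23.5, 23.9 and 27.0 CPM on 4 kPa against 10.7 to 12.7 on 0.5 kPa and 14.1 to 15.1 on 25 kPa (log2 0.94 ± 0.08, adjusted p = 3.3e-05 in edgeR). SGK1, a kinase induced by serum and glucocorticoids, was at 19.8, 19.4 and 22.6 CPM on 4 kPa, 9.68 to 10.1 on 0.5 kPa and 12.1 to 12.5 on 25 kPa (0.90 ± 0.08, adjusted p = 3.5e-05 in edgeR). These genes had narrow replicates on the end gels. Among 7 tested glucocorticoid targets SGK1 and ERRFI1 rose (28.6% against 0.392% of all genes) and 5 did not pass. NFKBIZ, a nuclear partner of NF-kB, was at 51.7, 48.5 and 51.5 CPM on 4 kPa, 27.4 to 32.7 on 0.5 kPa and 27.1 to 27.9 on 25 kPa (0.82 ± 0.07, adjusted p = 1.9e-05 in edgeR). EDN1, the vasoconstrictor peptide endothelin 1, was at 185, 195 and 220 CPM on 4 kPa, 81.0 to 91.5 on 0.5 kPa and 141 to 164 on 25 kPa (0.80 ± 0.07, adjusted p = 3.9e-05 in edgeR). EDN1 was a peak by a small margin, since 4 against 25 kPa gave 0.40 (adjusted p = 0.046 in edgeR).

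KLF factors are zinc finger regulators that include mechanosensitive members. Of 14 tested genes on their list, which also holds BHLHE40, 3 rose (21.4% against 0.392% of all genes) and all 3 were peaks. KLF6 was at 318, 312 and 333 CPM on 4 kPa against 192 to 197 on 0.5 kPa and 222 to 228 on 25 kPa (0.61 ± 0.05, adjusted p = 3.5e-05 in edgeR). KLF2, a factor induced by flow in endothelium, was less even, at 17.7, 19.4 and 28.0 CPM on 4 kPa against 12.9 to 14.5 and 10.6 to 12.5 (0.80 ± 0.13, adjusted p = 0.010 in edgeR). BHLHE40, a repressor also tied to the circadian clock that was listed with them, rose by 0.41 ± 0.06 (adjusted p = 0.0049 in edgeR). STAT2, a factor of interferon signalling, was the 1 called of 22 interferon-stimulated genes (0.35 ± 0.06, adjusted p = 0.015 in edgeR). That was 4.55% of the list against 0.392% of all genes, and the list had a median of -0.087. The last peaks, named after their values were seen, were the microRNA host MIR22HG (0.61) and SCHIP1 (1.03, mean under 5 CPM).

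Single members of other lists also stood above the midpoint. They were the cytokine LIF (0.46), which with NFKBIZ was called of 20 NF-kB targets, and the hypoxia-responsive peptide ADM (0.53, 1 of 20). The others were the splicing factor SRSF6 (0.30) and the keratins KRT80 (0.36) and KRT7 (0.42, 2 of 10). Over all genes tested 0.392% were called above. The 5 had adjusted p from 0.010 to 0.042 in edgeR. These 5 genes were not peaks, and with 1 library left out ADM was called in all 9 fits, KRT80 in 6, LIF in 4, KRT7 in 2 and SRSF6 in 1. KRT7 and KRT80 lay between the end gels, near 25 kPa. KRT7 had 488, 527 and 604 CPM on 4 kPa, 222 to 261 on 0.5 kPa and 616 to 751 on 25 kPa. Its antisense partner KRT7-AS, named after its values were seen, was called above too (1.00). The sources used here do not say if counting was stranded, and reads of KRT7 and KRT7-AS then cannot be told apart.

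Gene lists with no called member were those of ATF4 targets, endoplasmic reticulum chaperones, heat shock proteins, G1 and S phase, CDK inhibitors, the circadian clock and cAMP targets. The others were metallothioneins, sterol and fatty acid synthesis, Notch, Wnt, cadherins and EMT, matrix proteases, integrins, glycolysis, ribosomal proteins, nuclear noncoding RNAs and housekeeping genes. Over these 18 lists 0 of 333 genes were called by edgeR and 1 below by DESeq2, with 15 above and 23 below at an unadjusted p under 0.05. Their medians lay between -0.12 and 0.091. Some of these lists had called genes without both replicates numbered 3, as given with those libraries. For EMT genes the median of 16 was -0.071, with ZEB1 at -0.30 (adjusted p = 0.20 in edgeR). The largest difference among their leading members was that of SIK1, a CREB target, at 1.08 (adjusted p = 0.30 in edgeR), where 4 kPa replicate 1 had 11.7 CPM and the other libraries 2.68 to 3.67. For the 13 housekeeping genes the median was -0.0070 and the range -0.17 to 0.12.

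The replicates numbered 3 of 0.5 and 4 kPa stood apart in the NF-kB and ATF4 lists, and also in sterol and fatty acid synthesis. The median of the NF-kB targets relative to the midpoint was 0.71 in 0.5 kPa replicate 3 and 0.71 in 4 kPa replicate 3, against -0.21 to -0.11 in replicates 1 and 2 of these gels. The ATF4 targets had 0.58 and 0.66 in the same 2 libraries against -0.49 to -0.22 in the others of these gels. On 25 kPa the medians ran from -0.30 to 0.063 for NF-kB and from -0.064 to 0.28 for ATF4. Without 4 kPa replicate 3 the NF-kB median turned from 0.14 to -0.24 and the ATF4 median from 0.091 to -0.29, so no direction is given for either list. In sterol and fatty acid synthesis the median was -0.38 in 0.5 kPa replicate 3, against -0.095 and -0.057 in replicates 1 and 2. On 4 kPa it was -0.14 in replicate 3, against 0.19 and 0.13. Without both replicates numbered 3, edgeR called 313 genes above and 245 below the midpoint, 89 of them peaks and 73 dips. Of the lists with no called member, the largest counts above in that fit were 7 of 26 genes of sterol and fatty acid synthesis and 3 of 23 integrin and focal adhesion genes. The largest below was 10 of 67 ribosomal proteins.

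**Figure D4:**
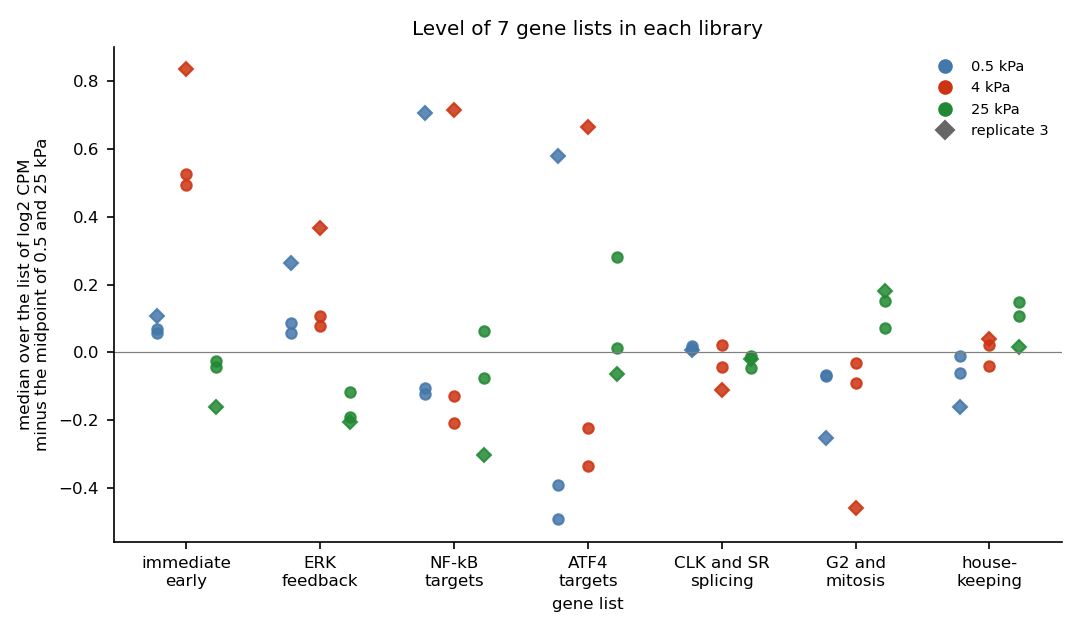
Median over each list (horizontal axis) of log2 CPM relative to the midpoint of 0.5 and 25 kPa (vertical axis), with 1 point per library and diamonds for replicates numbered 3. The 3 points of 4 kPa are the highest for the immediate early genes (0.49, 0.53 and 0.83), whereas for NF-kB and ATF4 targets the replicates numbered 3 of 0.5 and 4 kPa lie together above the other libraries.

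CLK1 (ENSG00000013441, chromosome 2, 200853009 to 200864744), a kinase that phosphorylates SR splicing factors, was the dip with the smallest adjusted p. It was at 40.4, 43.2 and 43.7 CPM on 4 kPa, 80.8, 82.1 and 92.0 on 0.5 kPa and 73.8, 80.9 and 74.96 on 25 kPa. CLK1 fell by 0.93 ± 0.07 on the log2 scale against the midpoint (adjusted p = 7.1e-06 in edgeR). CLK4, a kinase of the same family, was at 11.9, 11.3 and 13.6 CPM on 4 kPa against 18.4 to 22.4 on 0.5 kPa and 17.5 to 18.9 on 25 kPa, and fell by 0.64 ± 0.09 (adjusted p = 0.0045 in edgeR). CLK2 and CLK3, named for comparison after their values were seen, had 0.16 and 0.14 and did not pass (adjusted p = 0.49 and 0.55 in edgeR). Of 29 tested CLK kinases and SR factors 2 fell (6.9% against 0.245% of all genes), 1 rose (SRSF6, 3.45% against 0.392%) and 26 did not pass, with a median of -0.035.

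Of 39 genes of G2 and mitosis, 2 fell (5.13% against 0.245% of all genes), 0 rose and 37 did not pass. At an unadjusted p under 0.05 there were 14 below, against 997 of all 16335 genes tested, and 0 above. DESeq2 called 3 of the list below. CENPE, a kinesin that carries chromosomes to the spindle equator, was at 45.8, 43.3 and 39.3 CPM on 4 kPa, 59.9, 61.1 and 64.0 on 0.5 kPa and 58.8, 72.3 and 70.2 on 25 kPa. CENPE fell by 0.59 ± 0.08 (adjusted p = 0.0027 in edgeR). KIF20B, a kinesin of late mitosis, was at 43.8, 40.4 and 33.9 CPM on 4 kPa against 52.8 to 57.3 and 48.4 to 62.2, and fell by 0.50 ± 0.09 (adjusted p = 0.031 in edgeR). Both were dips. The list median was -0.18, and 37 of 39 differences were negative, but in the library median of the list 4 kPa replicate 3 stood at -0.46 and the other 4 kPa libraries at -0.03 and -0.09. Without 4 kPa replicate 3 the list median was -0.070, with 12 of 39 positive and 2 still called below. For the 28 genes of G1 and S phase the median was -0.054 and 0 were called by edgeR or DESeq2, with 1 below at an unadjusted p under 0.05 and CLSPN nearest (-0.32, adjusted p = 0.43 in edgeR).

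The other dips by size were ZNF681, a zinc finger gene (-0.58), ZBED8 (-0.53) and ESF1, a nucleolar protein of ribosomal RNA processing (-0.53), with adjusted p from 0.010 to 0.028 in edgeR. ESF1 was at 31.7, 33.1 and 42.6 CPM on 4 kPa against 48.6 to 57.2 and 46.9 to 54.5. The remaining dips, named after their values were seen, were CWF19L2 (-0.48), ZNF626 (-0.44), CCDC34 (-0.40), WBP4, a spliceosome protein (-0.39), NDUFA5, a subunit of complex I (-0.36), NUCB2 (-0.35) and the pseudogene FAM133CP. FAM133CP was low, at 0.550, 0.638 and 0.489 CPM on 4 kPa against 4.09 to 4.65 on 0.5 kPa and 1.16 to 1.41 on 25 kPa (-2.06, adjusted p = 1.3e-04 in edgeR). As a processed pseudogene it may share reads with its parent family, and its counts are uncertain.

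Several of the larger falls from the midpoint were not dips. AC245060.5, a long noncoding RNA on chromosome 22, had the largest fall of the called genes above 5 CPM on average, at 3.65, 1.96 and 3.42 CPM on 4 kPa, 11.9 to 13.3 on 0.5 kPa and 4.65 to 5.13 on 25 kPa (-1.38 ± 0.16, adjusted p = 6.3e-04 in edgeR). Its main step was between 0.5 and 4 kPa. The pseudogene SMG1P2 (-0.70), whose reads can be shared with SMG1 and its other copies, the zinc finger genes ZNF253 (-0.63) and ZNF14 (-0.53), the corepressor CIR1 (-0.53), the homeobox gene SIX4 (-0.51) and ANKRD26 (-0.49) complete the 15 largest falls among such genes whose libraries did not overlap. None of these genes passed against 25 kPa alone. With 1 library left out AC245060.5 was called in all 9 fits and ANKRD26 in 8, but SMG1P2, CIR1 and SIX4 in 3, ZNF14 in 2 and ZNF253 in 1, and of the dips CLK4 was called in 8, ZNF681 in 7, KIF20B in 4, ESF1 in 2 and ZBED8 in 1.

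RNAs of the mitochondrial genome were lower on 4 kPa in 12 of 13 genes, with a median of -0.31. MT-ND4 and MT-ND5, subunits of complex I, passed the test (-0.44 and -0.42, adjusted p = 0.022 and 0.042 in edgeR) and 11 did not. The share below was 15.4%, against 0.245% of all genes. DESeq2 called 9 below, and the alternatives and left-out libraries together 0 to 10. With 1 library left out MT-ND5 was called in 1 of 9 fits, that without 25 kPa replicate 2, and MT-ND4 in 4, losing its call without 0.5 kPa replicate 2, 4 kPa replicate 1 or 2 or 25 kPa replicate 3 or 4. MT-ND4 was at 3317, 3082 and 3448 CPM on 4 kPa, 4675, 4742 and 5360 on 0.5 kPa and 3672, 4307 and 4030 on 25 kPa. These genes lay close to 25 kPa, neither of the called ones was a dip, and the mitochondrial share of the counts was 5.21 to 5.74% on 0.5 kPa, 3.99 to 4.41% on 4 kPa and 4.15 to 4.60% on 25 kPa. MALAT1, a noncoding RNA of the nucleus, had -0.43 (adjusted p = 0.21 in edgeR).

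The transcripts of the genes that fell were poor in G and C, and those of the peaks came from short genes. With 1 coding transcript per gene from GENCODE 29, the median GC content was 52.7% for 54 genes above the midpoint, 38.6% for 32 genes below it and 49.0% for 13349 tested genes, and all 32 genes below had less than that last value. The median gene length was 6.52 kb for the peaks, 33.0 kb for the dips and 33.9 kb for all, with a median of 4, 13 and 9 exons. The 3′ UTRs of the peaks held ATTTA, the core of AU-rich elements that destabilise RNA, at a median of 2.38 per kb, those of the dips at 4.77 and all at 1.66. The longer element TATTTATTT was in 3 of 24 peaks (12.5%), 2 of 13 dips (15.4%), 6 of 24 immediate early genes (25.0%) and 10.5% of all. It was in 22.6% of the genes above the midpoint and 13.3% of those below. Both elements hold only A and T, and the median GC content was 52.58% for the peaks and 36.85% for the dips. The part of base composition in these counts was not tested.

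The levels of the libraries relative to each other moved with transcript GC content. The coding genes were split into 5 classes of like size by GC content, and in the lowest class (31.8 to 41.3%) 27 genes were called below and 1 above, and the median difference of all 2677 was -0.092. In that class the 4 kPa libraries 1, 2 and 3 had medians of -0.036, -0.10 and -0.14 relative to the midpoint, the 25 kPa libraries 2, 3 and 4 had -0.057, 0.066 and 0.049, and the 0.5 kPa libraries -0.065, -0.015 and 0.032. In the class with the highest GC content, 4 kPa replicate 3 stood at 0.13 and 25 kPa replicate 2 at 0.11. When the smooth trend of each library on GC content was removed, an alternative added after the data were seen, 23 of the 25 peaks remained peaks (EDN1 and NR4A1 did not) and 2 of the 14 dips remained dips (CLK1 and CENPE). ZNF253, ESF1, ZBED8, ZNF14, CIR1, KIF20B and AMOTL2 were then no longer called (adjusted p from 0.051 to 0.12 in edgeR), while CLK4 and ZNF681 stayed below the midpoint without being dips.

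**Figure D5:**
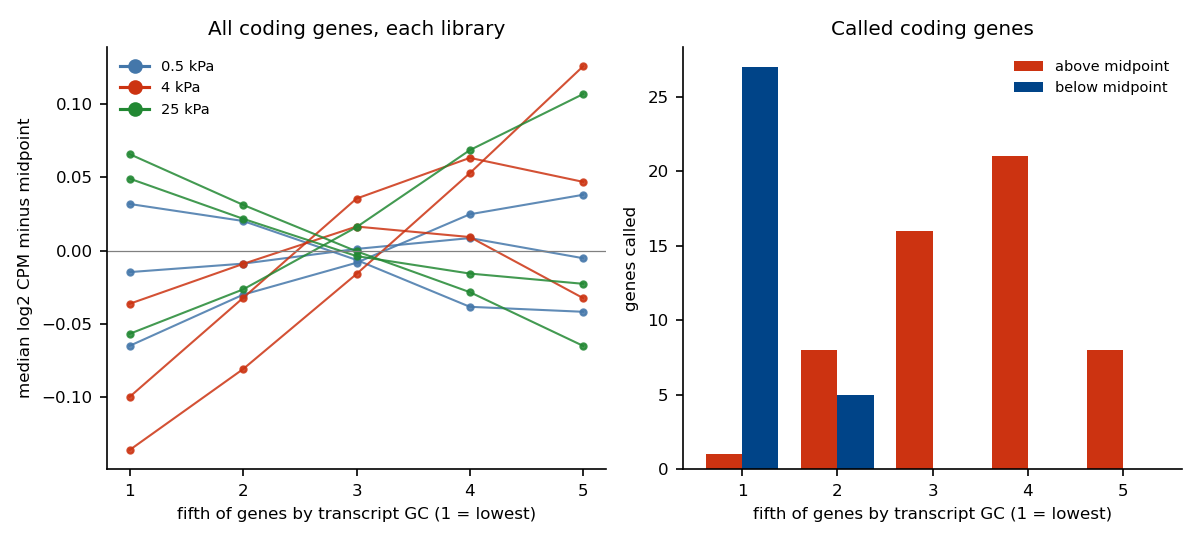
Left, median log2 CPM relative to the midpoint (vertical axis) of coding genes in 5 classes of transcript GC content (horizontal axis, 1 is lowest), with 1 line per library. Right, number of genes called above (red) and below (blue) the midpoint in each class. Of the 32 coding genes below the midpoint 27 are in the lowest class and 5 in the next, while the genes above are spread over all classes with 21 in class 4.

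With any 1 of the 9 libraries left out, 16 of the 25 peaks were peaks in all 9 fits, among them EGR1, FOS, FOSB, CSRNP1, TRIB1, IER2, CTGF, CYR61, DUSP1, DUSP5, SOCS3, SGK1, NFKBIZ and KLF6, and 2 of the 14 dips, CLK1 and CENPE, were dips in all 9. EDN1 was a peak in 1 of the 9 fits, KLF2 and STAT2 in 2 and IER3 in 4. With all libraries and the replicate number as a block in the fit, 12 of the 25 peaks and 1 of the 14 dips (CLK1) remained. CENPE was no longer a dip there, and IER2, SOCS3, SGK1 and KLF6 were no longer peaks. Without 4 kPa replicate 3, 99 genes were above and 85 below the midpoint, with 33 peaks and 31 dips, and without 4 kPa replicate 2 there were 31 above and 6 below, with 16 peaks and 2 dips.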

How the data were processed

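Cells of the line SKOV-3 on 3 gels were measured by poly(A) RNA sequencing, with 3 libraries per gel grouped by the labels. The authors deposited raw counts per gene (36343 genes), made from reads aligned to hg38 with HISAT2 2.1.0 after bcl2fastq and FastQC 0.11.5 per the submitters' processing notes. The authors also deposited FPKM values, that is counts scaled to gene length and library size. No source used here gives the counting program or annotation. The labels name another library kit than the methods. Per-sample columns that matched no sample (3) and the transcript tables were not used.

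The counts were filtered with filterByExpr (16335 genes kept), scaled by TMM factors (0.966 to 1.02) and fitted with edgeR 4.0.16 (robust quasi-likelihood, R 4.3.3) over all 9 libraries with gel as the factor. Contrasts were 4 kPa minus the midpoint (weight 0.5 for each end), minus 0.5 kPa and minus 25 kPa, with Benjamini-Hochberg adjustment over all genes at 0.05, two-sided. CPM are counts per 1000000 of the TMM-scaled total. The log2 CPM behind the library medians of gene lists used a prior count of 2. The library medians by class of GC content used log2(CPM + 0.5). Depth was 19609740 to 21033433 counts per library. Tests were tried on simulated data first.

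Named genes were the 15 largest rises and falls among called genes that averaged 5 CPM or more and whose 4 kPa libraries did not overlap the others, plus up to 4 called members of each list, or its member of smallest p. The comparison, lists and rule were chosen with earlier results of these data known. Alternatives were DESeq2 1.42.0, other size factors and filters, a replicate block, references interpolated by stiffness, limma 3.58.1 on log2(FPKM + 1) or log2(FPKM + 0.1) at a mean FPKM of at least 1 or unfiltered, a 2-fold rule, left-out libraries and, added after the data were seen, no robust estimation and removal of the GC trend.

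GENCODE 29 gave transcript features (16319 genes matched by ID, 16006 with the same start and end, 13349 with a coding transcript, 1 transcript per gene). RefSeq promoters were matched by symbol, Ensembl ID or unique synonym for 11496 genes and searched with Python 3.11.15, pandas 2.3.3 and numpy 2.4.6, and figures were drawn with matplotlib 3.10.9. Some items are not reported here.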

Additional observations from a re-analysis of the deposited data

How the results depend on the processing

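The counts of genes called depended on the processing more than the leading peaks did. DESeq2 called 106 genes above, 106 below, 39 peaks and 26 dips, and edgeR without a filter on low counts called 141, 139, 43 and 36. With the reference interpolated by stiffness there were 133 above and 110 below. limma on log2(FPKM + 1) called 49 above, 19 below and 4 dips, with a pseudocount of 0.1 it called 47, 17 and 4, and with no filter 35, 9 and 2. Upper-quartile factors left 7 dips, and the 2-fold rule with an unadjusted p left 8. Without the replicates numbered 3 of 0.5 and 4 kPa there were 313 above, 245 below, 89 peaks and 73 dips. With the GC trend removed, an alternative added after the data were seen, there were 69 above, 22 below and 2 dips. Leaving out 1 library at a time gave 29 to 99 above, 6 to 85 below, 16 to 33 peaks and 2 to 31 dips. The counts above or below moved by over 1.5 times without 0.5 kPa replicate 1 (37 and 19) or 2 (29 and 11), 4 kPa replicate 1 (41 and 11), 2 (31 and 6) or 3 (99 and 85) and 25 kPa replicate 3 (37 and 12) or 4 (31 and 8). The count of dips alone moved without 0.5 kPa replicate 3 (9). The cause of these moves was not tested. Whether replicate numbers pair the libraries could not be settled, because the deviations of 3 libraries from their gel mean depend on each other. Over 7 same-numbered pairs the correlation of deviations ran from -0.566 to 0.348, and 3 exceeded 0.1. Over 20 differently numbered pairs it ran from -0.573 to 0.573. With the number as a replicate block, edgeR called 20 above, 4 below, 12 peaks and 1 dip. Over 15 alternatives, 68 named genes kept direction and call in 852 of the results, lost the call in 143 and gained it in 17, and 2 changed sign: DUSP6 at -0.042 with the reference interpolated by stiffness, and MT1X, not called, at -0.085 without both replicates numbered 3. Left-out libraries gave 466, 142 and 3, and 1 change of sign, where MT1X ran from -0.0010 to 0.33. Of the peaks, 8 (EGR1, FOS, FOSB, DUSP5, EGR3, DUSP1, CSRNP1 and CTGF) were peaks in every alternative that tested them. Depth limits the precision of genes of a few CPM most, such as EGR2 and SCHIP1.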

Other observations

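Genes named for zinc fingers (ZNF) were mostly below the midpoint on 4 kPa without passing the test. Of 512 tested, 176 had a positive difference, against 7956 of all 16335 genes tested, with a median of -0.06 on the log2 scale against -0.0046. edgeR called 4 of the 512 below (ZNF253, ZNF14, ZNF626 and ZNF681), against 40 of all 16335 genes tested. These 4 had 33.91 to 40.49% GC, within the lowest class by GC content. That class of 2677 coding genes had a median of -0.092, with 27 called below, so a median under 0 was not particular to ZNF genes. The ZNF group was not among the gene lists, which were themselves chosen with earlier results of these data known. With the GC trend of each library removed, ZNF253 and ZNF14 were no longer called and ZNF626 and ZNF681 were no longer dips.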
